A study of Mus musculus with 24 samples.

Results

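The kidney reabsorbs filtered sugar and lactate through a small set of carriers in the proximal tubule. The RNA of 8 genes for such carriers was followed here: the sodium-coupled carriers Slc5a1, Slc5a2, Slc5a8, Slc5a10 and Slc5a12, and the facilitative carriers Slc2a1, Slc2a2 and Slc2a5. They were chosen by symbol from the Slc5 and Slc2 families, and all 8 were among the 17286 genes tested, of 54532 counted genes. RNA was sequenced in bulk from mouse kidney, in 24 libraries. Of these, 6 came from Lrp2 knockout mice and 6 from wild-type (WT) mice after 2 weeks of Western diet, and 6 from knockout and 6 from WT mice after 12 weeks of that diet. The knockout removes Lrp2, the gene for the endocytic receptor megalin, from proximal tubule cells, and the WT mice are described as littermates. All mice carry the unexplained designation LRP2-SM22, with +/+ for WT and -/- for knockout, and all ate the Western diet, so no group on standard feed was used here. The labels name no Cre driver, strain, sex, age or further shared allele. The labels do not say that each library is a separate mouse, so the p-values measure the spread between these samples, part of which may be technical.

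Glucose enters the proximal tubule cell with sodium and leaves it by facilitated diffusion. In the early tubule the brush-border carrier SGLT2 (Slc5a2) takes up most of the filtered glucose, and GLUT2 (Slc2a2) releases it to the blood side. In the late, straight tubule SGLT1 (Slc5a1), a carrier of higher affinity, takes up the remainder, and GLUT1 (Slc2a1) is a basolateral exit carrier of that region that many other cell types also make. SGLT5 (Slc5a10) carries mannose and fructose, and GLUT5 (Slc2a5) carries fructose. SMCT1 (Slc5a8) and SMCT2 (Slc5a12) carry lactate and other monocarboxylates with sodium, SMCT1 with the higher affinity.

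The RefSeq promoter table held windows for 6 of the 8 genes. The 250 bases before the annotated start are printed for Slc2a2 and Slc5a8, whose RNA was lower in knockout kidneys at both durations, and for Slc5a1, whose RNA did not pass the test at either. The 2-week result of Slc2a2 depended on single libraries, as given below. The coordinates are GRCm38.p6, and each window lies on the plus strand: chr3:28697653-28697902 for Slc2a2, chr10:88885742-88885991 for Slc5a8 and chr5:33103969-33104218 for Slc5a1. Capitals mark a match to either of the motifs spelled out after the sequences.
Slc2a2: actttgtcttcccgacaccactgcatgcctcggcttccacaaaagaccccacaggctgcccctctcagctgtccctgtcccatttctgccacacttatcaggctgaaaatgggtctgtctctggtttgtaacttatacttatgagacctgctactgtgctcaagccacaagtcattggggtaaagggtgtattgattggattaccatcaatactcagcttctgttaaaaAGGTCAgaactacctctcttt
Slc5a8: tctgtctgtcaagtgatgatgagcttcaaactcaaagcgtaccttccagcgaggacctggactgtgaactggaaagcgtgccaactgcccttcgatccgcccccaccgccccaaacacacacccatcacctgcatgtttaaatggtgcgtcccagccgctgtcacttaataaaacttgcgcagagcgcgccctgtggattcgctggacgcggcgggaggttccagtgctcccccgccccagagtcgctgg
Slc5a1: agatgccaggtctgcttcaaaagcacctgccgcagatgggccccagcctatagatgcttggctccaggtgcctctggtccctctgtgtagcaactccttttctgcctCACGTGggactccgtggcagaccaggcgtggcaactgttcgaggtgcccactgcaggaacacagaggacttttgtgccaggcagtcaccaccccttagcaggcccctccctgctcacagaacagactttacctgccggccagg
Of 4 motifs searched on both strands, the nuclear receptor half-site AGGTCA and the E-box CACGTG are reported here. Slc2a2 had AGGTCA starting 21 bases before its start, and Slc5a1 had CACGTG starting 143 bases before it. The Slc5a8 window held neither. Of the members whose windows are not printed, Slc5a10 had AGGTCA 158 bases before its start in 1 of its 2 windows and neither of these motifs in the other. Among 32851 windows of the same table, 14% held AGGTCA and 6.02% held CACGTG. A match describes these letters only.

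Library totals, in M (mega, 1e6) counts, were 16.3 to 25.2 in knockout and 15.6 to 34.1 in WT at 2 weeks, and 11.3 to 15.2 in knockout and 11.4 to 14.5 in WT at 12 weeks. Lrp2 followed the labels, with 192 to 584 CPM (counts per 1e6 counts of the library, on library sizes scaled by TMM) in knockout against 1588 to 2289 CPM in WT at 2 weeks, and 186 to 390 against 1410 to 2503 CPM at 12 weeks. Some genes had counts at 1 duration alone. Of genes with a mean of at least 1 CPM at a duration, 50 had counts at 2 weeks and 0 in every 12-week library, and 24 had the reverse. Differences between 12 and 2 weeks therefore cannot be told apart from any difference in how the libraries were made or counted, whereas each genotype comparison lies within 1 duration. The mean share of counts from mitochondrially encoded genes was lower in knockout, at 6.88 ± 1.65% against 8.89 ± 0.644% in WT at 2 weeks and 10.5 ± 1.08% against 13.7 ± 0.877% in WT at 12 weeks (SD, n = 6 each). At 2 weeks knockout replicate 2, at 10.1%, lay above the highest WT library, at 9.83%.

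The genotype comparison asks how the transporter RNAs differed once the proximal tubule lacked megalin. Slc5a2 and Slc2a2, taken as the early carriers, were lower in knockout kidneys at both durations, and so was SMCT1. The late carrier SGLT1 did not pass the test at either, nor did the widely made GLUT1 or SMCT2. Neither SMCT1 nor SMCT2 was assigned to a tubule segment here. At 2 weeks 3 of the 8 genes were lower and 5 did not pass the test, by edgeR's quasi-likelihood test at a Benjamini-Hochberg adjusted p under 0.05. Over all tested genes 31.6% passed, 18.2% higher and 13.4% lower. At 12 weeks 4 of the 8 were lower and 4 did not pass, where 38.5% of all tested genes passed, 20.7% higher and 17.7% lower. The median log2 fold change of the 8 was -0.30 at 2 weeks, against -0.01 for all genes, and -0.46 at 12 weeks, against 0.00. In bulk kidney RNA, fewer cells of a type and less RNA per cell cannot be told apart.

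**Figure D1:**
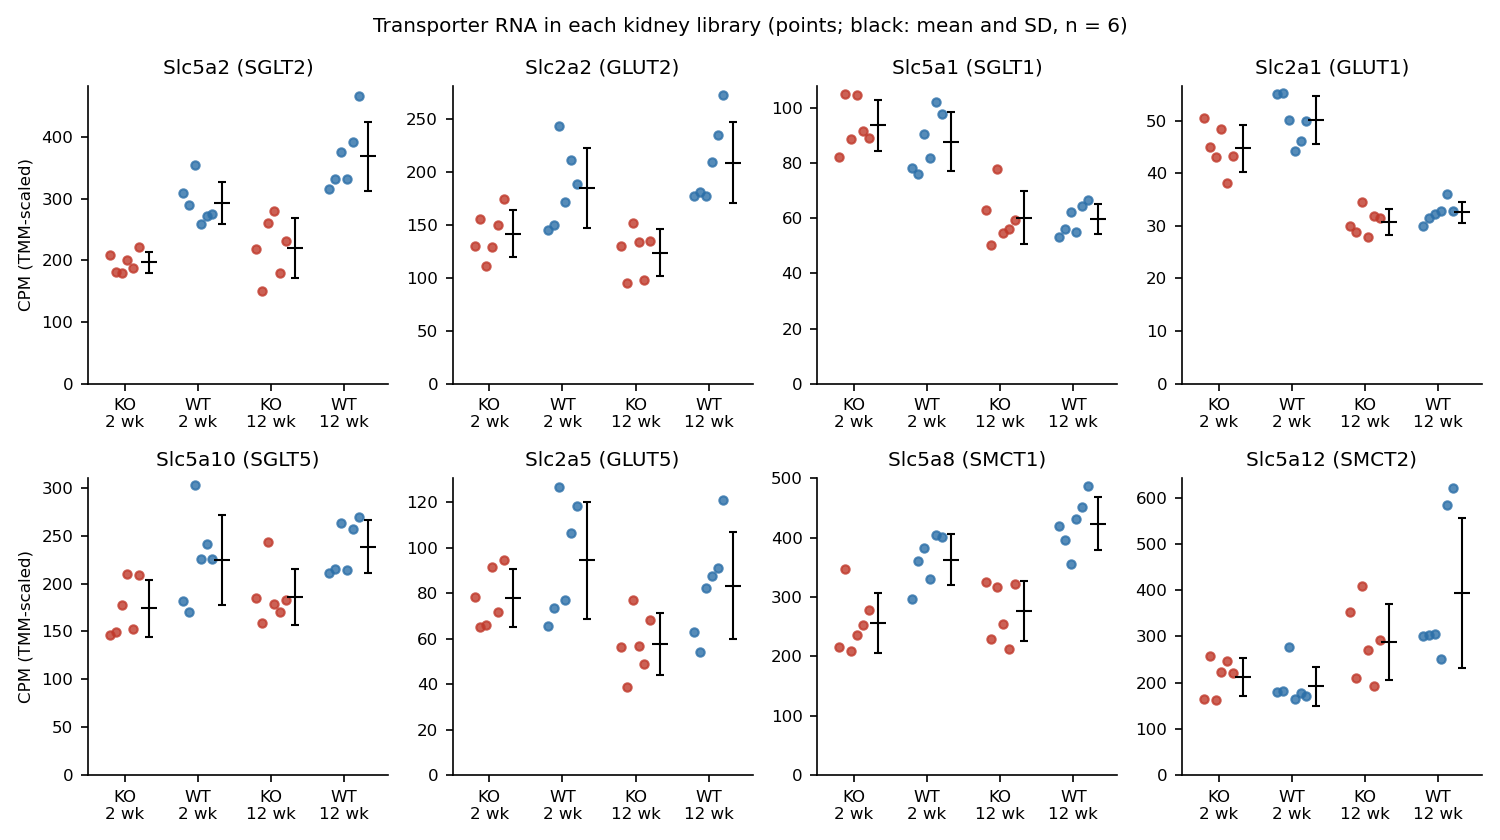
RNA of the 8 transporter genes in each kidney library, in CPM scaled by TMM. Points are libraries (red knockout, blue WT), and black marks give the mean and SD of 6 libraries. At 12 weeks the knockout points of Slc5a2, Slc2a2 and Slc5a8 all lie below the WT points, and those of Slc5a1 and Slc2a1 lie among them.

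Slc5a2, encoding SGLT2, lies at chr7:128265657-128272430 on the plus strand (mm10, ENSMUSG00000030781). At 2 weeks its level was 179.9 to 222 CPM in knockout libraries (median 194) and 259 to 355 CPM in WT libraries (median 283). No knockout library reached the lowest WT library. The log2 fold change was -0.55 (SE 0.09), that is 0.683-fold, with an edgeR adjusted p of 7.5e-05. At 12 weeks it was 149.7 to 279.8 CPM in knockout (median 225) and 317 to 468 CPM in WT (median 354), and again the groups did not overlap. At 12 weeks the log2 fold change was -0.72 (SE 0.14; edgeR adjusted p 0.0012). Slc5a2 was the 1 member of the 8 without overlap at 2 weeks, where 16.6% of tested genes had none and 6.32% were lower without overlap. It shares 597 exon bases, 20.6% of its exon length, with BC017158 on the opposite strand, and whether the counting used strand is not stated. BC017158 stood at 24.3 to 31.5 CPM in knockout and 27.6 to 34.3 CPM in WT at 2 weeks, and its log2 fold changes of -0.15 and -0.00 did not pass the edgeR test (adjusted p 0.19 and 1).

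Slc2a2, encoding GLUT2, lies at chr3:28697903-28731359 on the plus strand, directly downstream of the window printed above. At 2 weeks it stood at 111 to 174 CPM in knockout (median 139.8) and 145 to 243 CPM in WT (median 179.9), and the groups overlapped. The log2 fold change was -0.36 (SE 0.13; edgeR adjusted p 0.038). This call was lost without knockout replicate 1, 3, 4 or 5 or WT replicate 3, 5 or 6, when the log2 fold change lay between -0.26 and -0.37 and the adjusted p between 0.057 and 0.095. At 12 weeks Slc2a2 stood at 95.2 to 152 CPM in knockout (median 132) and 177 to 272 CPM in WT (median 195). Every knockout library was below every WT library. The log2 fold change was -0.72 (SE 0.13; edgeR adjusted p 0.00081), and it kept its call without any 1 library.

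Slc5a1, encoding SGLT1, lies at chr5:33104219-33162870 on the plus strand. It stood at 82.4 to 105 CPM in knockout (median 90.6) and 76.0 to 102 CPM in WT (median 86.4) at 2 weeks. At 12 weeks it stood at 50.2 to 77.8 CPM in knockout (median 57.7) and 53.4 to 66.7 CPM in WT (median 59.3). The ranges lay over each other at both durations. Log2 fold changes were 0.12 (SE 0.09; edgeR adjusted p 0.31) at 2 weeks and 0.04 (SE 0.10; adjusted p 0.78) at 12 weeks. Without knockout replicate 3 at 12 weeks, the highest Slc5a1 library of that group, the 12-week value was -0.05.

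Slc2a1, encoding GLUT1, lies at chr4:119108711-119137983 on the plus strand. It stood at 38.1 to 50.6 CPM in knockout and 44.2 to 55.2 CPM in WT at 2 weeks, and at 27.9 to 34.5 CPM in knockout and 29.9 to 36.0 CPM in WT at 12 weeks. Its log2 fold changes were -0.14 (SE 0.08; edgeR adjusted p 0.21) and -0.05 (SE 0.07; adjusted p 0.59). The groups overlapped at both durations.

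**Figure D2:**
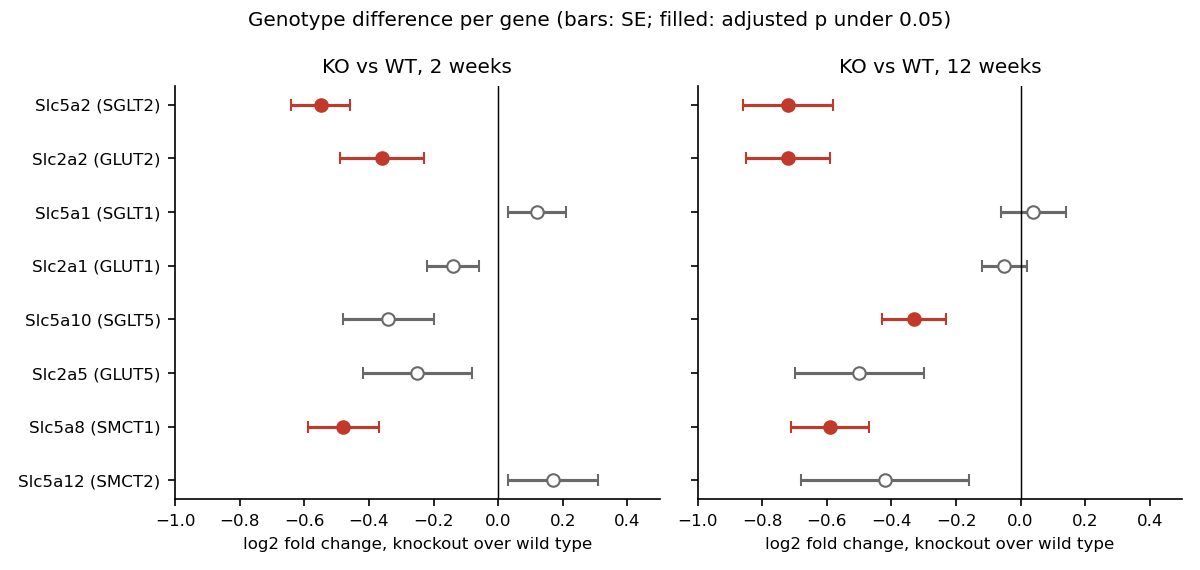
Log2 fold change of each gene, knockout over WT, at 2 weeks (left) and 12 weeks (right). Points are estimates, bars are standard errors and filled points passed the edgeR test. Slc5a2 and Slc2a2 lie at -0.72 at 12 weeks, and Slc5a1 and Slc2a1 lie within 0.14 of 0 at both durations.

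The early carriers were set against the late carrier within each library, as the log2 ratio of their CPM. The only late gene was Slc5a1, so the ratio compares genes and not tubule segments. Of 12 other late (S3) markers, described below, 9 were lower in knockout at 2 weeks and 5 at 12 weeks. Of all tested genes 13.4% and 17.7% were lower. Scaling of the library cancels in this ratio. At 2 weeks the Slc5a2 to Slc5a1 log2 ratio was 1.07 ± 0.22 in knockout (0.78 to 1.34) and 1.74 ± 0.25 in WT (1.41 to 1.98; SD, n = 6 each). At 12 weeks it was 1.85 ± 0.28 in knockout (1.57 to 2.36) and 2.62 ± 0.09 in WT (2.56 to 2.81). The groups did not overlap at either duration. The differences of -0.67 (SE 0.14) and -0.77 (SE 0.12) correspond to factors of 0.629 and 0.587. Each had an exact two-sided permutation p of 0.0022, the smallest that 6 against 6 libraries can give, and an adjusted p of 0.0029 over the 4 ratio tests.

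The Slc2a2 to Slc5a1 log2 ratio was 0.58 ± 0.25 in knockout (0.30 to 0.96) and 1.05 ± 0.19 in WT (0.89 to 1.42) at 2 weeks (SD, n = 6 each). Knockout replicate 6, at 0.96, was the knockout library inside the WT range. The difference was -0.47 (SE 0.13), a factor of 0.722, with an exact permutation p of 0.0065 that stayed at 0.0065 after adjustment. At 12 weeks the log2 ratio was 1.03 ± 0.18 in knockout and 1.79 ± 0.19 in WT, that is, linear ratios of 1.73 to 2.45 in knockout and 2.83 to 4.07 in WT, without overlap. That difference was -0.76 (SE 0.11), a factor of 0.591, with an exact permutation p of 0.0022 and an adjusted p of 0.0029. The replicate block used another test, an exact sign-flip test of 6 pairs of libraries with equal number, whose smallest p is 0.0312. By it the 2-week difference of Slc2a2 to Slc5a1 did not pass (adjusted p 0.062). The other 3 ratio differences passed (adjusted p 0.042 each), each at that smallest p.

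**Figure D3:**
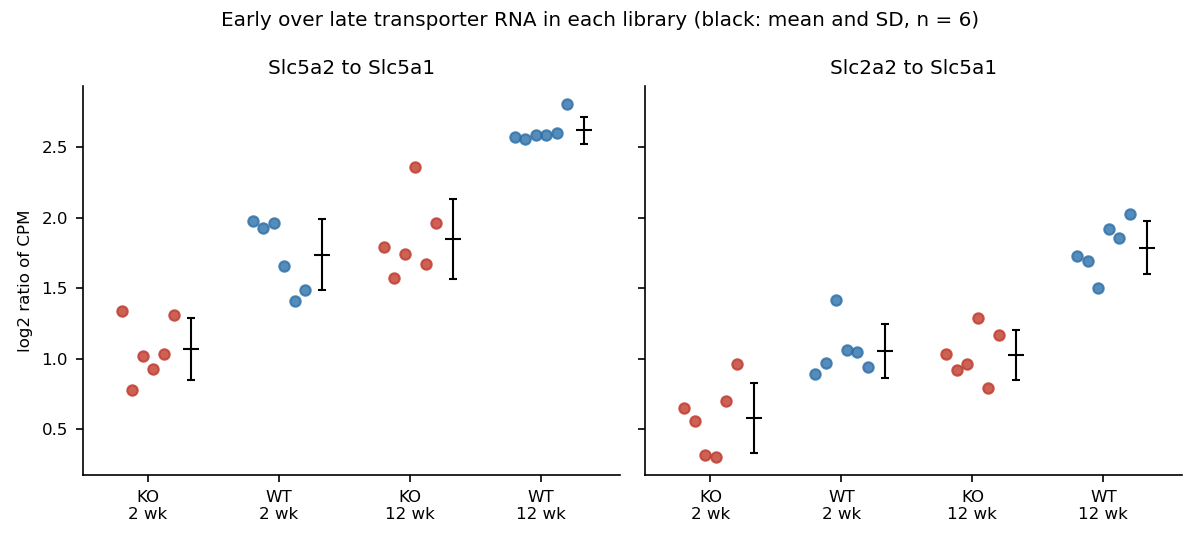
Log2 ratio of early to late carrier CPM in each library: Slc5a2 to Slc5a1 (left) and Slc2a2 to Slc5a1 (right). Points are libraries (red knockout, blue WT), and black marks give mean and SD of 6 libraries. The Slc5a2 to Slc5a1 ratio lay between 0.78 and 1.34 in knockout and 1.41 and 1.98 in WT at 2 weeks.

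The remaining hexose carriers had smaller or more variable differences. Slc5a10, encoding SGLT5, lies at chr11:61672781-61720826 on the minus strand. It stood at 146 to 210.4 CPM in knockout (median 165) and 170.1 to 303 CPM in WT (median 225) at 2 weeks, with a log2 fold change of -0.34 (SE 0.14; edgeR adjusted p 0.068). It passed without knockout replicate 4 or 6 or WT replicate 1 or 2, at -0.39 to -0.41, and also by DESeq2 (-0.35, adjusted p 0.035) and with all 24 libraries in 1 edgeR fit (-0.37, adjusted p 0.027). At 12 weeks it stood at 159 to 243 CPM in knockout (median 180.4) and 211 to 269.7 CPM in WT (median 237), and was lower in knockout by a log2 fold change of -0.33 (SE 0.10; edgeR adjusted p 0.021). The groups overlapped at both durations. Slc5a10 shares 393 exon bases, 16.6% of its exon length, with Fam83g on the opposite strand, which averaged 12.2 CPM in knockout and 17.5 CPM in WT at 2 weeks. The log2 fold change of Fam83g was -0.49 (edgeR adjusted p 0.013) at 2 weeks and -0.35 (adjusted p 0.082) at 12 weeks, and without a strand setting its reads cannot be told apart from those of Slc5a10 in the shared bases.

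Slc2a5, encoding the fructose carrier GLUT5, lies at chr4:150119283-150144169 on the plus strand. It stood at 65.1 to 94.8 CPM in knockout (median 75.0) and 65.5 to 127 CPM in WT (median 91.8) at 2 weeks. At 12 weeks it stood at 38.6 to 77.2 CPM in knockout (median 56.6) and 54.2 to 121 CPM in WT (median 85.1). The WT libraries spread widely and covered most of the knockout range. Log2 fold changes were -0.25 (SE 0.17; edgeR adjusted p 0.29) and -0.50 (SE 0.20; adjusted p 0.067). The 12-week value passed without knockout replicate 3 (-0.60, adjusted p 0.033) and without WT replicate 1 or 2 (-0.57 and -0.60), by DESeq2 (adjusted p 0.024) and with all 24 libraries in 1 edgeR fit (adjusted p 0.035).

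Of the monocarboxylate carriers, SMCT1 was lower in knockout at both durations and SMCT2 did not pass the test at either. Slc5a8, encoding SMCT1, lies at chr10:88885992-88929515 on the plus strand. At 2 weeks it stood at 208 to 347 CPM in knockout (median 244) and 296 to 404 CPM in WT (median 372). Knockout replicate 2 was the 1 knockout library inside the WT range. Its log2 fold change was -0.48 (SE 0.11; edgeR adjusted p 0.0029). At 12 weeks Slc5a8 stood at 212 to 325 CPM in knockout (median 286) and 356 to 487 CPM in WT (median 426), with no overlap, and its log2 fold change was -0.59 (SE 0.12; edgeR adjusted p 0.0013).

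Slc5a12, encoding SMCT2, lies at chr2:110597298-110647779 on the plus strand. At 2 weeks it stood at 162 to 259 CPM in knockout (median 222) and 164 to 277 CPM in WT (median 179). The WT libraries lay between 164 and 181 CPM apart from replicate 3, at 277 CPM. Its log2 fold change was 0.17 (SE 0.14; edgeR adjusted p 0.38), and without WT replicate 3 it was 0.31 with an adjusted p of 0.047. At 12 weeks Slc5a12 stood at 192 to 408 CPM in knockout (median 282) and 251 to 621 CPM in WT (median 303). WT replicates 5 and 6 stood at 584 and 621 CPM, and the other WT libraries were at or below 304 CPM. The 12-week log2 fold change was -0.42 (SE 0.26; edgeR adjusted p 0.23).

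At 12 weeks 3 of the 8 genes, Slc5a2, Slc2a2 and Slc5a8, had no overlap between knockout and WT libraries, where 18.4% of tested genes had none and 8.3% were lower without overlap. None of the 8 genes passed the test of the genotype difference against duration, with edgeR or with DESeq2, and 0 of the 8 had an unadjusted p under 0.05 in either. That edgeR test called 0.174% of all genes. The estimates ranged from -0.60 (SE 0.32) for Slc5a12 and -0.37 (SE 0.20) for Slc2a2 to 0.08 (SE 0.10) for Slc2a1. The interaction of Slc5a10, 0.01 (SE 0.18), changed sign with the replicate block and without single libraries.

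Levels of different genes were compared as CPM per kilobase of exon, with all annotated exons of a gene merged. The transcripts made in these kidneys were not determined, so the order between genes depends on this choice of length. In knockout at 2 weeks Slc5a10 led, at 73.7 ± 12.6 CPM per kb, followed by Slc5a2 at 67.9 ± 5.78, Slc5a12 at 52.4 ± 10.1 and Slc5a8 at 48.0 ± 9.58 CPM per kb (SD, n = 6 here and below). In WT at 2 weeks Slc5a2 led, at 101 ± 12.0 CPM per kb, followed by Slc5a10 at 95.0 ± 20.02, Slc5a8 at 68.0 ± 8.01 and Slc5a12 at 47.2 ± 10.3 CPM per kb. At 12 weeks Slc5a10 led again in knockout, at 78.8 ± 12.4 CPM per kb with Slc5a2 at 75.9 ± 16.9, and Slc5a2 led in WT, at 127.5 ± 19.4 CPM per kb with Slc5a10 at 100.9 ± 11.6. In each of the 4 groups the ranges of Slc5a2 and Slc5a10 overlapped, so the order of these 2 did not exceed the spread of libraries. The lower order was the same in all groups: Slc2a2 (24.6 ± 3.91 in knockout and 32.1 ± 6.54 CPM per kb in WT at 2 weeks), then Slc2a5, Slc5a1 and Slc2a1 (12.8 ± 1.26 in knockout and 14.3 ± 1.28 CPM per kb in WT at 2 weeks). The ranges of Slc2a2 and Slc2a5, and of Slc2a5 and Slc5a1, overlapped in all 4 groups, and Slc2a1 lay below Slc5a1 without overlap in all 4 groups.

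Slc5a1 and Slc2a1 were lower at 12 than at 2 weeks in both genotypes, within the limit on counting given above. Slc5a1 averaged 60.2 ± 9.69 CPM at 12 weeks and 93.8 ± 9.32 CPM at 2 weeks in knockout, and 59.7 ± 5.49 CPM at 12 weeks and 87.9 ± 10.8 CPM at 2 weeks in WT (SD, n = 6 each). The libraries of the durations did not overlap in either genotype. Log2 fold changes, 12 over 2 weeks, were -0.64 (SE 0.09; edgeR adjusted p 5.8e-06) in knockout and -0.56 (SE 0.10; adjusted p 4.6e-05) in WT. Slc2a1 averaged 30.7 ± 2.40 CPM at 12 weeks and 44.7 ± 4.42 CPM at 2 weeks in knockout, and 32.5 ± 2.03 and 50.1 ± 4.48 CPM in WT, also without overlap, with log2 fold changes of -0.54 (SE 0.07; edgeR adjusted p 1.5e-06) in knockout and -0.62 (SE 0.07; adjusted p 1.5e-07) in WT.

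In knockout these 2 genes were the members that passed for duration, where 33.8% of all tested genes passed and 16.1% of all were lower at 12 weeks. Of all tested genes 14.3% had no overlap between the durations, 7.24% being lower. In WT 4 members passed, where 30.4% of all genes did, 15.8% higher and 14.7% lower, and where 16% had no overlap, 7.67% being lower. Of these 4, Slc5a1 and Slc2a1 were lower, and Slc5a12 and Slc5a2 were higher at 12 weeks. Slc5a12 averaged 394 ± 163 CPM at 12 weeks and 192 ± 42.0 CPM at 2 weeks in WT, a log2 fold change of 1.04 (SE 0.23; edgeR adjusted p 0.0012), against 0.44 (SE 0.23; adjusted p 0.14) in knockout. Slc5a2 was higher at 12 weeks in WT by 0.33 (SE 0.12; edgeR adjusted p 0.036). This last call was lost on leaving out 1 of 14 libraries: any 2-week knockout library, WT replicate 3, 5 or 6 at 12 weeks, or WT replicate 1, 2, 4, 5 or 6 at 2 weeks. The value was then 0.24 to 0.33, with adjusted p-values of 0.053 to 0.12. In knockout Slc5a2 differed by 0.16 (SE 0.12; adjusted p 0.32) between durations. Slc2a5 in knockout had -0.43 between durations (SE 0.20; edgeR adjusted p 0.091), which passed without 12-week knockout replicate 3 (-0.53, adjusted p 0.044) and when the 12 knockout libraries were fitted alone (-0.44, adjusted p 0.036).

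Genes with the most similar pattern were ranked by the root mean square difference of log2 CPM over the 24 libraries, after each gene was centred on its own mean. These libraries span both durations, so the ranking also takes in duration differences, with the limit on counting given above. Candidates were 13599 tested genes of at least 1 CPM with a name other than a predicted one. Slc5a2 was nearest to Pbld1 (0.135), Neu1 (0.142) and Tmem8 (0.152), against a median of 0.469 over the candidates, and the nearest genes of Slc2a2 included Prkaa2 (0.133) and Slc7a9 (0.138). Slc5a1 was nearest to Atg7 (0.123), Ston2 (0.142) and Oat (0.142), and those of Slc2a1 included Tmem38a (0.121) and Sgpp2 (0.129). The nearest genes of Slc5a8 included Gk (0.101) and Cyp2j5 (0.104). Slc5a10 was nearest to Taco1 (0.165), Ehd1 (0.166) and Mapk8ip1 (0.167), and Slc2a5 to Ank3 (0.180), Myo7b (0.197) and Aco1 (0.211). For Slc5a12 the nearest were Sephs2 at 0.269, Ube3a at 0.308 and Zfp106 at 0.309, against a candidate median of 0.588. Its own root mean square around its mean was 0.526, against 0.284 for Slc5a10, so these distances are not comparable between members.

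Counts of the lists that follow stand beside 18.2% higher and 13.4% lower of all tested genes at 2 weeks, and 20.7% higher and 17.7% lower at 12 weeks. Of 11 early proximal tubule markers 9 were lower in knockout at 2 weeks and 11 at 12 weeks, with median log2 fold changes of -0.54 and -0.73. Slc34a3, a phosphate carrier, averaged 17.2 ± 3.11 CPM in knockout and 40.1 ± 5.46 CPM in WT at 2 weeks, a log2 fold change of -1.19 (SE 0.11; edgeR adjusted p 3.3e-07), and -1.46 (SE 0.13; adjusted p 2.3e-06) at 12 weeks. The amino acid carriers Slc7a8 and Slc6a19 were lower, with log2 fold changes of -0.65 and -0.73 at 2 weeks and -0.70 and -1.10 at 12 weeks. Of 12 late (S3) markers 9 were lower at 2 weeks and 5 at 12 weeks, with medians of -0.49 and -0.51.

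Whether Slc5a1 differed from these S3 markers was not tested. Acy3, an aminoacylase, was lower, at -0.57 (SE 0.12; edgeR adjusted p 0.0017) at 2 weeks and -0.87 (SE 0.11; adjusted p 3.6e-05) at 12 weeks, and Ggt1, a brush-border glutathione enzyme, at -0.53 and -0.71. Slc22a13, an organic anion carrier, was lower at 2 weeks (-0.80) and had -0.23 (edgeR adjusted p 0.17) at 12 weeks. The 12-week count of S3 markers was 9 by DESeq2 or with all 24 libraries in 1 fit, and 8 with the replicate block or without knockout replicate 3 or 6 or WT replicate 4.

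**Figure D4:**
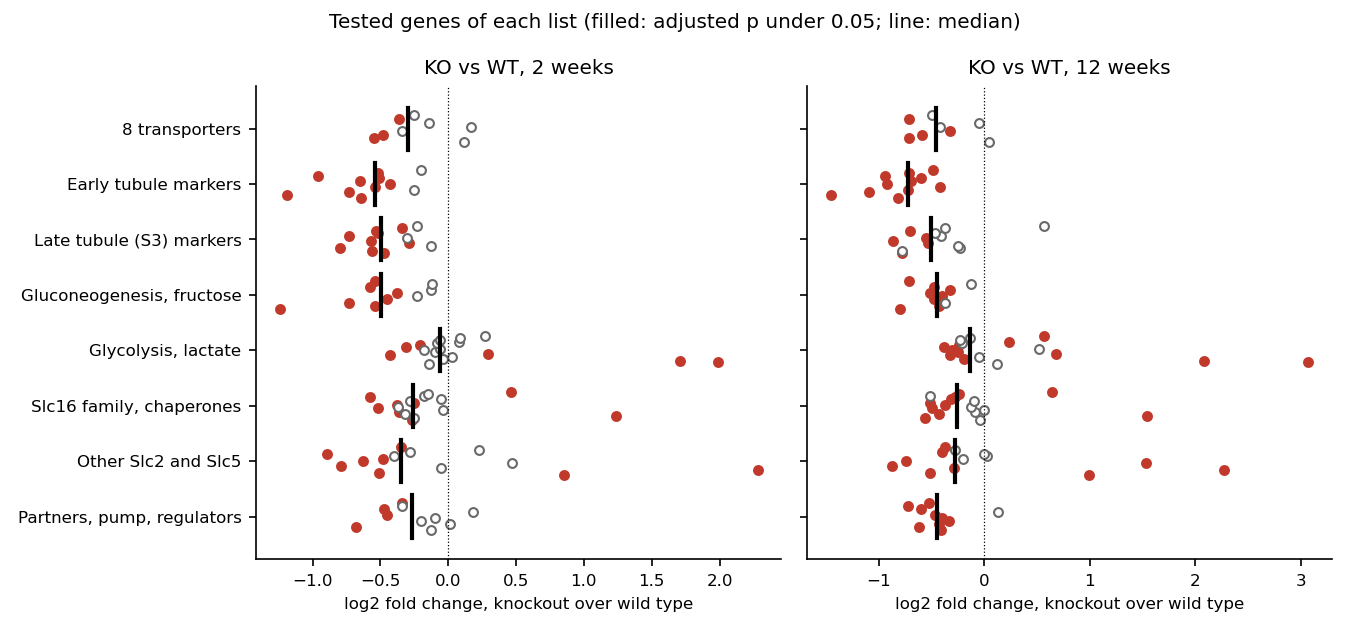
Log2 fold change, knockout over WT, of each tested gene of the 8 transporters and 7 related lists at 2 weeks (left) and 12 weeks (right). Filled points passed the edgeR test and black lines are list medians. The early tubule markers have medians of -0.54 and -0.73, and the glycolysis genes -0.06 and -0.14.

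Of 10 genes of gluconeogenesis and fructose breakdown 7 were lower at 2 weeks and 8 at 12 weeks (medians -0.49 and -0.45). G6pc, the glucose-6-phosphatase that frees glucose for export, averaged 264.5 ± 88.3 CPM in knockout and 638 ± 122 CPM in WT at 2 weeks, a log2 fold change of -1.24 (SE 0.20; edgeR adjusted p 0.00025), and had -0.80 (adjusted p 0.00064) at 12 weeks. Slc37a4, which carries glucose 6-phosphate to that enzyme, was lower, at -0.54 and -0.72, and so was Fbp1, fructose bisphosphatase, at -0.54 and -0.43, all past the test.

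Of 17 genes of glycolysis and lactate 3 were higher and 3 lower at 2 weeks, and 5 higher and 6 lower at 12 weeks (medians -0.06 and -0.14). At 2 weeks these counts were near the shares of all genes. The 12-week total of 11 was 7 with no filter on low counts, and 7 without knockout replicate 2 or 5 or WT replicate 6. The hexokinase Hk2 averaged 4.85 ± 1.69 CPM in knockout and 1.21 ± 1.14 CPM in WT at 2 weeks, a log2 fold change of 1.99 (SE 0.45; edgeR adjusted p 0.0041), and 3.07 (SE 0.34; adjusted p 1.4e-05) at 12 weeks. Hk3 was higher by 1.71 and 2.08, and the phosphofructokinase Pfkp by 0.29 and 0.68.

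Of the other Slc2 and Slc5 genes 13 of 16 were tested. At 2 weeks 2 were higher and 6 lower, and at 12 weeks 3 were higher and 6 lower (medians -0.35 and -0.28). Slc5a4a, picked out after its values were seen, was among those lower at 2 weeks and had 0 counts in every 12-week library; without it the 12-week median of the other 12 was -0.29. Slc2a6, encoding GLUT6, averaged 2.30 ± 0.517 CPM in knockout and 0.459 ± 0.222 CPM in WT at 2 weeks, and its log2 fold changes were 2.28 (SE 0.29; edgeR adjusted p 8.9e-06) and 2.27 (SE 0.38; adjusted p 0.00031). Slc2a9, the urate carrier, was lower, at -0.79 and -0.88, and so was Slc2a12, at -0.63 and -0.74, all past the test.

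Among 16 Slc16 monocarboxylate carriers and chaperones 2 were higher and 6 lower at 2 weeks, and 2 higher and 8 lower at 12 weeks (median -0.26 at each). The 2-week total was 5 without WT replicate 6. The lactate exporter Slc16a3 averaged 2.18 ± 0.977 CPM in knockout and 0.763 ± 0.524 CPM in WT at 12 weeks, with log2 fold changes of 1.24 (SE 0.26; edgeR adjusted p 0.0011) at 2 weeks and 1.54 (SE 0.43; adjusted p 0.011) at 12 weeks. The chaperone Emb was higher by 0.46 and 0.64, and Slc16a13 was lower, at -0.58 and -0.28. Of 10 partner, sodium pump and regulator genes 4 were lower at 2 weeks and 9 at 12 weeks (medians -0.27 and -0.45). Pdzk1, a brush-border scaffold protein, was lower, at -0.68 and -0.62 (edgeR adjusted p 0.00085 and 0.0016), as was the sodium pump subunit Fxyd2, at -0.45 and -0.47.

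Markers of injury and of other cells moved with genotype beside these differences. All 12 tubular injury markers were higher in knockout at both durations (medians 3.50 and 2.78), and their summed level was 6075 to 12170 CPM in knockout against 692 to 950.2 CPM in WT at 2 weeks and 3082 to 6257 against 599.9 to 748 CPM at 12 weeks. Spp1 was higher by 4.15 at 2 weeks and past the test at both durations, Clu by 2.77 and 2.00 and Cd44 by 3.30 and 2.90. All 13 macrophage and dendritic cell markers were higher (medians 2.18 and 1.97), with a summed level of 1302 to 2798 CPM in knockout against 395 to 527 CPM in WT at 2 weeks and 1679 to 3444 against 389 to 850.5 CPM at 12 weeks. Cd74 was higher by 2.19 and 1.97, H2-Ab1 by 2.16 and 2.01 and Itgam by 3.08 and 2.74. No marker of either list was at 0 in any group. The part of these cells, and of the lower mean mitochondrial share, in the transporter differences was not tested.

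Other compartments differed less uniformly. Of 9 distal nephron and collecting duct markers 6 were lower at 2 weeks and 5 at 12 weeks (medians -0.60 and -0.51), among them Slc4a1 (-1.14 and -0.72), Pvalb (-1.35 and -1.21) and Aqp3 (-0.89 and -1.11). Their summed level was 5264 to 6457 CPM in knockout against 7039 to 8569 CPM in WT at 2 weeks, and 2629 to 5664 against 3903 to 5225 CPM at 12 weeks. Of 8 endothelial markers 2 were lower at 2 weeks and 3 at 12 weeks (medians -0.03 and -0.19). These are counts of few genes, and of all tested genes 13.4% and 17.7% were lower. Kdr was among the lower endothelial markers (-0.48 and -0.79). The summed level of the 8 was 444 to 516 CPM in knockout against 484 to 631 CPM in WT at 2 weeks. At 12 weeks it was 426 to 687 against 555 to 802 CPM. Of 5 podocyte markers 1 was lower at 2 weeks, Nphs1 (-0.34), and 3 were higher at 12 weeks. The 12-week count was 1 without knockout replicate 5. Their summed level was 321 to 395 CPM in knockout against 349 to 417 CPM in WT at 2 weeks, and 447 to 712.5 against 421 to 636 CPM at 12 weeks. Of 5 tested red cell markers 0 passed the edgeR test at either duration, 0 had an unadjusted p under 0.05 and 0 passed with DESeq2 (medians -0.43 and 0.73). Without knockout replicate 3, 2 passed at 2 weeks. The red cell sum was 9.62 to 167 CPM in knockout against 23.8 to 96.2 CPM in WT at 2 weeks, and 3.69 to 68.2 against 3.45 to 28.7 CPM at 12 weeks.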

How the data were processed

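Kidney RNA was extracted with a Maxwell RSC kit and made into NEBNext Ultra libraries, per the labels' protocols. Each of the 24 deposited files gives whole-number counts by Ensembl identifier for a single library, not normalized. The tools fastp, STAR 2.5 and HTSeq 0.6.1 and the build mm10 are listed per the submitters' processing notes, which state neither options, strandedness nor annotation. Of 54532 gene identifiers 54495 matched GENCODE M21, the source of symbols, positions and exon overlaps.

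Tests on these counts used the robust quasi-likelihood fit of edgeR 4.0.16 (R 4.3.3) with TMM scaling. They were two-sided, and Benjamini-Hochberg adjustment ran over every tested gene at a threshold of 0.05. filterByExpr (minimum count 10, minimum total 15) kept 17286 genes. Genotype was fitted on the 12 libraries of each duration, and the interaction and duration on all 24. The standard error is the absolute log2 fold change over the square root of F. Library totals ranged from 11.3 to 34.1 M counts. Ratios of 2 genes used log2 CPM with a prior count of 2 and an exact permutation test over 924 splits. Members and the 13 lists were chosen with earlier results of these data known. Named list genes are up to 3 called members of each list, those with the smallest adjusted p at either duration. Some genes that the naming or likeness rule picks, and a promoter motif, are not reported here. Promoters are RefSeq windows on GRCm38.p6, of which those of Slc5a2 and Slc5a12 were not used here.

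Knockout and WT libraries of equal number had residual correlations of -0.06 to 0.06 at 2 weeks and -0.1 to 0.17 at 12 weeks. Correlations this near 0 over all genes showed no pairing by number. They cannot exclude that libraries of equal number shared a litter or a preparation. No pair of replicates was close enough to be a duplicate (chi-square per gene at least 6.38). The results were recomputed leaving out each library in turn, and with DESeq2 1.42.0, upper-quartile or RLE scaling, a filter at a mean of 1 CPM or none, removal of Gm42418 and mitochondrially encoded genes, other sets of libraries in the fit, a replicate block and a prior count of 0.5.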

Additional observations from a re-analysis of the deposited data

Results flagged for a closer look

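In 4 of 44 groups of 6 libraries, 1 library lay far from the others for its group; chance alone marks about 1 group in 20. Slc5a10 in knockout kidneys at 12 weeks had 243 CPM in replicate 3, against 185 CPM in the next library. Slc5a12 in WT kidneys at 2 weeks had 277 CPM in replicate 3, against 181 CPM in the next. The log2 ratio of Slc5a2 to Slc5a1 in WT at 12 weeks was 2.81 in replicate 6, against 2.60 in the next. The log2 ratio of Slc2a2 to Slc5a1 in WT at 2 weeks was 1.42 in replicate 3, against 1.06 in the next. WT replicate 3 at 2 weeks was also the highest of its group for Slc5a2, Slc2a2, Slc5a10 and Slc2a5. The causes were not tested.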

How the results depend on the processing

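The genotype comparisons called 4826 to 6063 genes at 2 weeks and 5515 to 7267 at 12 weeks over all settings, each within 1.5 times its main count of 5467 and 6653. The interaction count was 30 with edgeR, 133 with DESeq2 (79 higher, 54 lower), and 22 to 56 with 1 library left out; the highest was without 12-week knockout replicate 3. With the replicate block the genotype comparisons called 5103 and 5950 genes, and 0 and 2 of 12 libraries correlated best with their own number. The block ended the 2-week call of Slc2a2 (edgeR adjusted p 0.057). It also ended that of the Slc2a2 to Slc5a1 ratio (-0.47, sign-flip adjusted p 0.062), where 6 pairs allow no p below 0.0312. It gave calls for Slc5a10 at 2 weeks (0.022), Slc2a5 at 12 weeks (0.0081) and Slc2a5 between durations in knockout (0.02). Without a filter the 2-week call of Slc2a2 (adjusted p 0.063) and the WT duration call of Slc5a2 (0.098) were lost, the second also without Gm42418 and mitochondrial genes (0.056). Signs changed near 0: Slc5a1 at 12 weeks (-0.05 without knockout replicate 3), the Slc5a8 interaction (-0.17 to 0.00 with 1 library left out, the highest without 2-week knockout replicate 2) and the Slc5a10 interaction (-0.01 with the block, -0.10 to 0.09 with 1 library left out). The podocyte gene Synpo at 2 weeks (-0.00) had 0.00 with the block or without Gm42418 and mitochondrial genes, 0.01 with upper-quartile scaling and -0.04 to 0.06 with 1 library left out. The cause was not tested. With 1 library left out, the Slc5a2 to Slc5a1 difference ranged from -0.74 to -0.61 at 2 weeks and -0.87 to -0.71 at 12 weeks.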
